A study of Mus musculus with 7 samples.

Results

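Loss of glutamine was compared directly with loss of glucose in mouse embryonic fibroblasts (MEFs), without passing through the untreated control. Of the 49382 rows in the deposited table, 11627 entered the comparison. These averaged 2 TPM or more across all 7 libraries and had a symbol outside the classes set aside, which were symbols starting with Gm, Mir, Snor or mt-T and symbols containing -ps or -rs. TPM, a relative transcript abundance, is corrected for transcript length, was summed per gene and adds up to 1000000 in each library. The 2 libraries compared were those of cells kept for 10 hours in medium without glutamine and for 10 hours in medium without glucose. The other 5 libraries came from untreated control cells, from 1 μM thapsigargin for 10 hours (ER stress), from 10 μM sodium arsenite for 3 hours (oxidative stress), from 100 mM added NaCl for 3 hours (osmotic stress) and from 0.1% oxygen for 10 hours (hypoxia). All 7 came from wild type primary fibroblasts, grown from whole embryos after removal of the head and the red tissue and used after a few passages. The labels do not say whether the libraries came from 1 culture or several.

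With 1 library per condition, replicate error could not be estimated for any difference, and p-values were not computed. A gene was counted as different when log2(TPM + 1) differed by more than 1, that is by more than 2-fold after adding 1 TPM, a scale that understates differences of genes with low expression. TPM keeps no read counts, so the depth is unknown and no counting interval can be given. The 13 fibroblast markers summed to 15674 TPM in glucose depletion and 14068 TPM in glutamine depletion, and none of them was past 2-fold. Of 10 macrophage markers, 1 passed the expression filter, the list summed to between 8.61 and 17.2 TPM in the 7 libraries, C1qa was listed at 0 in all 7, and Itgam and Tyrobp were listed at 0 in both nutrient libraries. Mitochondrially encoded genes took 6.51% of the TPM in glucose depletion and 7.58% in glutamine depletion. In bulk RNA, fewer cells of a type or state and less of an mRNA per cell cannot be told apart.

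Glucose and glutamine are the main carbon sources of cultured fibroblasts. Glucose feeds glycolysis and, with glutamine, the hexosamine pathway that supplies the sugars of N-glycosylated proteins, and glutamine also supplies nitrogen for nucleotides and other amino acids and carbon for the citric acid cycle. Hexose phosphates are sensed by the transcription factor MondoA with its partner Mlx, whose best known target is Txnip, an arrestin-like protein that restrains glucose uptake. Lack of amino acids activates the kinase GCN2, which raises translation of the transcription factor ATF4 and so transcription of Atf3, Chac1, Trib3 and Asns, the integrated stress response. Disturbed protein folding in the ER activates in addition ATF6 and XBP1, which drive the ER chaperones.

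The short stretches below lie upstream of 7 of the named genes and are shown because they hold letters bound by factors of these pathways. They were read from RefSeq promoter windows of GRCm38.p6, given on the strand of the gene and with the motif in capitals. The E box CACGTG is the core of the element bound by MondoA and Mlx. TGATGCAA, here on the opposite strand as TTGCATCA, is bound by C/EBP and ATF proteins including ATF4. TGAGTCA, or TGACTCA on the opposite strand, is bound by AP-1, and CCAAT and CCACG with 9 bases between them form the ER stress response element bound by NF-Y and ATF6.
Arrdc4, E box starting 193 bases before the start site (chr7:68749381-68749476, minus strand): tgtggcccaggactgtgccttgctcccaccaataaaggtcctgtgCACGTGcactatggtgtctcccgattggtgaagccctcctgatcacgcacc
Atf3, C/EBP and ATF element starting 110 bases before the start site (chr1:191183391-191183488, minus strand): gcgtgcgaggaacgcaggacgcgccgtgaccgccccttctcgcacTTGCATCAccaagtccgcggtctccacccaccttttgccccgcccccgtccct
Chac1, C/EBP and ATF element starting 193 bases before the start site (chr2:119351004-119351101, plus strand): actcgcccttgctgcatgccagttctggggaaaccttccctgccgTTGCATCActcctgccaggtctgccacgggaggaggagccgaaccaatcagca
Il11, AP-1 element starting 98 bases before the start site (chr7:4778188-4778284, minus strand): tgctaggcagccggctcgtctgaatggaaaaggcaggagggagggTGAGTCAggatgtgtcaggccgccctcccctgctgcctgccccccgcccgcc
Lif, AP-1 element starting 228 bases before the start site (chr11:4257318-4257391, plus strand): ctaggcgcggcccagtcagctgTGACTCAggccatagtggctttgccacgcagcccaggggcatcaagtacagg
Creld2, ER stress response element starting 126 bases before the start site (chr15:88819475-88819583, plus strand): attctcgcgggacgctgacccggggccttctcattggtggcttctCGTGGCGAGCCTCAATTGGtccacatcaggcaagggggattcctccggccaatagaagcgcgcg
Derl3, ER stress response element starting 156 bases before the start site (chr10:75893197-75893305, plus strand): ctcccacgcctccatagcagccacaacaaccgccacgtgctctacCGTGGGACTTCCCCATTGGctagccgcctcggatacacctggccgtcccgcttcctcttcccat
The stretches of Atf3 and Il11 lie within longer annotated transcripts of the same genes, and none of the 7 overlaps an exon in GENCODE M21. Over the 8908 kept symbols with a promoter window, searched on both strands, 12.4% held the E box, 4.39% the AP-1 element, 0.696% the C/EBP and ATF element and 0.180% the ER stress response element. Among the 122 matched genes higher in glutamine depletion by more than 2-fold the shares were 12.3%, 9.84%, 2.46% (3 genes, namely Atf3, Chac1 and Nupr1) and 0%. Among the 82 matched genes higher in glucose depletion they were 7.32%, 1.22%, 0% and 2.44% (2 genes, namely Creld2 and Derl3). The cAMP response element TGACGTCA stood in 5.74% and 3.66% of these promoters, against 3.77% of all kept ones. Over all 32851 windows the E box stood in 7.15%, the AP-1 element in 5.20%, the cAMP response element in 1.79%, the C/EBP and ATF element in 0.895% and the ER stress response element in 0.119%. The window of Txnip held none of the 5 motifs, which says only that these letters are not in this window. No match was listed for Sdf2l1, Manf, Trib3 and Pdgfb either, so the 7 stretches do not stand for all named genes.

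Past 2-fold, more genes were higher in glutamine depletion than in glucose depletion. Of the 11627 rows, 188 (1.62%) were more than 2-fold higher in glutamine depletion and 135 (1.16%) more than 2-fold higher in glucose depletion, together 2.78%. The median difference, glutamine minus glucose, was -0.05 on the log2 scale, and the central 95% of rows lay between -0.84 and 0.87. Differences above 0 made up 43.6% of rows and differences below 0 made up 56.3%, so the small differences leaned towards glucose depletion and the large ones towards glutamine depletion. Protein-coding rows numbered 159 of the 188 and 106 of the 135. Other gene types were past 2-fold more often, at 12.7% of kept rows against 2.37% for protein-coding ones, and 23 of the counted rows were listed at 0 TPM in 1 of the 2 libraries. Nearest to the 2-fold limit were Nppb (1.00) inside it and Lonrf1 (0.996) outside it on the glutamine side, and Kifc1 (-1.01) inside it on the glucose side.

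**Figure D1:**
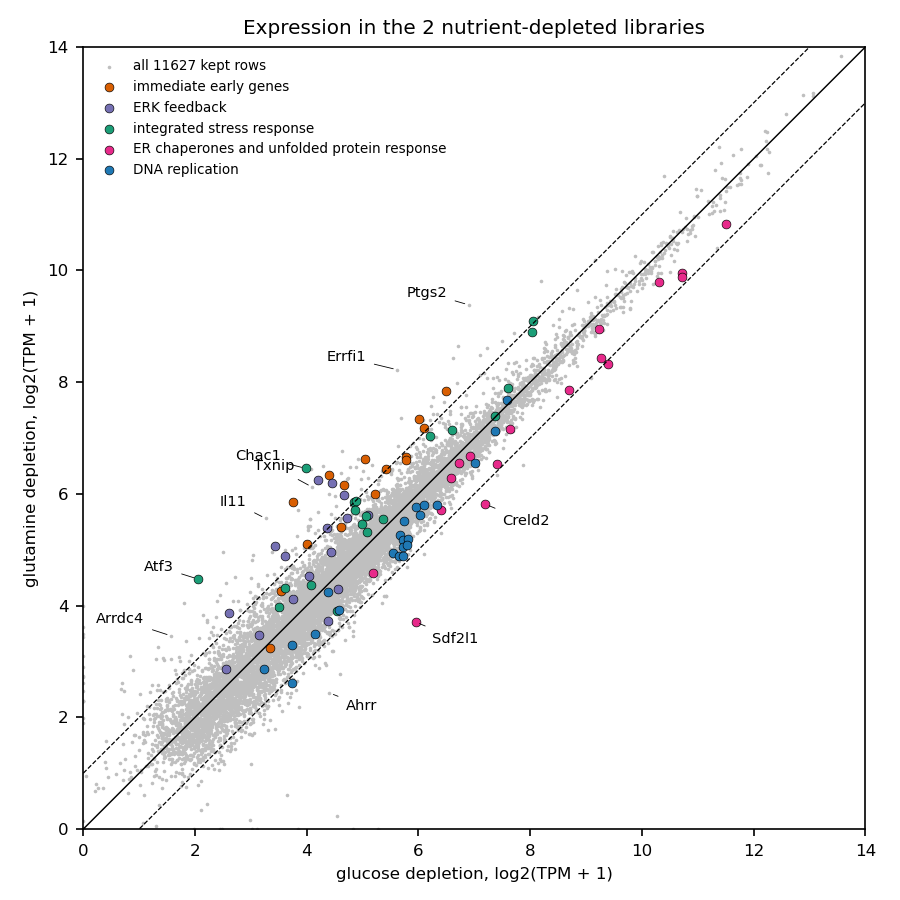
Level of each of the 11627 kept rows in glucose depletion (horizontal axis) and glutamine depletion (vertical axis), both as log2(TPM + 1), with 5 gene lists in colour; the solid line marks equal levels and the dashed lines 2-fold differences. Of the immediate early genes 14 of 15 and of the integrated stress response 18 of 19 lie above the solid line, all 17 ER chaperone genes lie below it, and Errfi1, Ptgs2, Chac1 and Atf3 lie far above the upper dashed line.

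The rows past 2-fold were also set beside the control library. Over all kept rows, 2.03% were more than 2-fold above the control and 1.87% below it in glutamine depletion. In glucose depletion these shares were 0.559% and 0.679%, so the glutamine library had more rows far from this control in general. For 117 of the 188 rows higher in glutamine depletion, the glutamine library alone was more than 2-fold above the control. For 23 the glucose library alone was more than 2-fold below it, for 1 both held, for 5 both libraries were past 2-fold on the same side of the control, and for 42 neither was past 2-fold. Of the 135 rows higher in glucose depletion, the glutamine library alone was more than 2-fold below the control for 56, the glucose library alone more than 2-fold above it for 17, both for 2, both were on the same side of the control for 4, and neither was past 2-fold for 56. The control was nearer the glucose library in 145 of the 188 rows and in 98 of the 135.

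Txnip and its relative Arrdc4 were among the rows for which the glucose library alone stood apart from the control. Txnip (chromosome 3, 96557957 to 96561883, plus strand) was at 16.1 TPM in glucose depletion, 68.7 TPM in glutamine depletion and 70.7 TPM in the control. It stood at 120 TPM in ER stress, 91.7 TPM in hypoxia, 44.9 TPM in oxidative stress and 7.22 TPM in osmotic stress. Glutamine-depleted cells thus kept the level of the control, and only the osmotic stress library lay below the glucose library. The direct difference was 2.03 on the log2 scale. Arrdc4, an arrestin-like protein of the same family (chromosome 7, 68736995 to 68749241, minus strand), was at 1.97 TPM in glucose depletion, the lowest of the 7 libraries, and at 10.0 TPM in glutamine depletion and 7.38 TPM in the control (difference 1.89). In the other 4 libraries it lay between 5.54 and 31.1 TPM.

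The remaining members of the MondoA and arrestin list did not separate the 2 libraries in this way. Of its 8 genes 2 were more than 2-fold higher in glutamine depletion, against 1.62% of all kept rows. The list median was 0.08, against -0.05 over all kept rows. Arrdc3, another arrestin of this family, was at 17.6 TPM in glucose depletion and 12.3 TPM in glutamine depletion (-0.48). Mlxip, which encodes MondoA itself, was at 13.2 and 12.7 TPM, and its partner Mlx at 47.7 and 37.0 TPM. The genes whose levels followed Txnip most closely over the 7 libraries were Prdm9, Dhx35, Zdhhc14, Cry2 and Ulk3, with a Pearson r of 0.966, 0.966, 0.964, 0.964 and 0.960 on log2(TPM + 1). Their range differed widely, since Zdhhc14 lay between 2.10 and 2.49 TPM throughout, while the autophagy-related kinase Ulk3 lay between 3.09 and 18.3 TPM. With 7 libraries and 11627 rows to choose from, these are descriptions of the table.

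**Figure D2:**
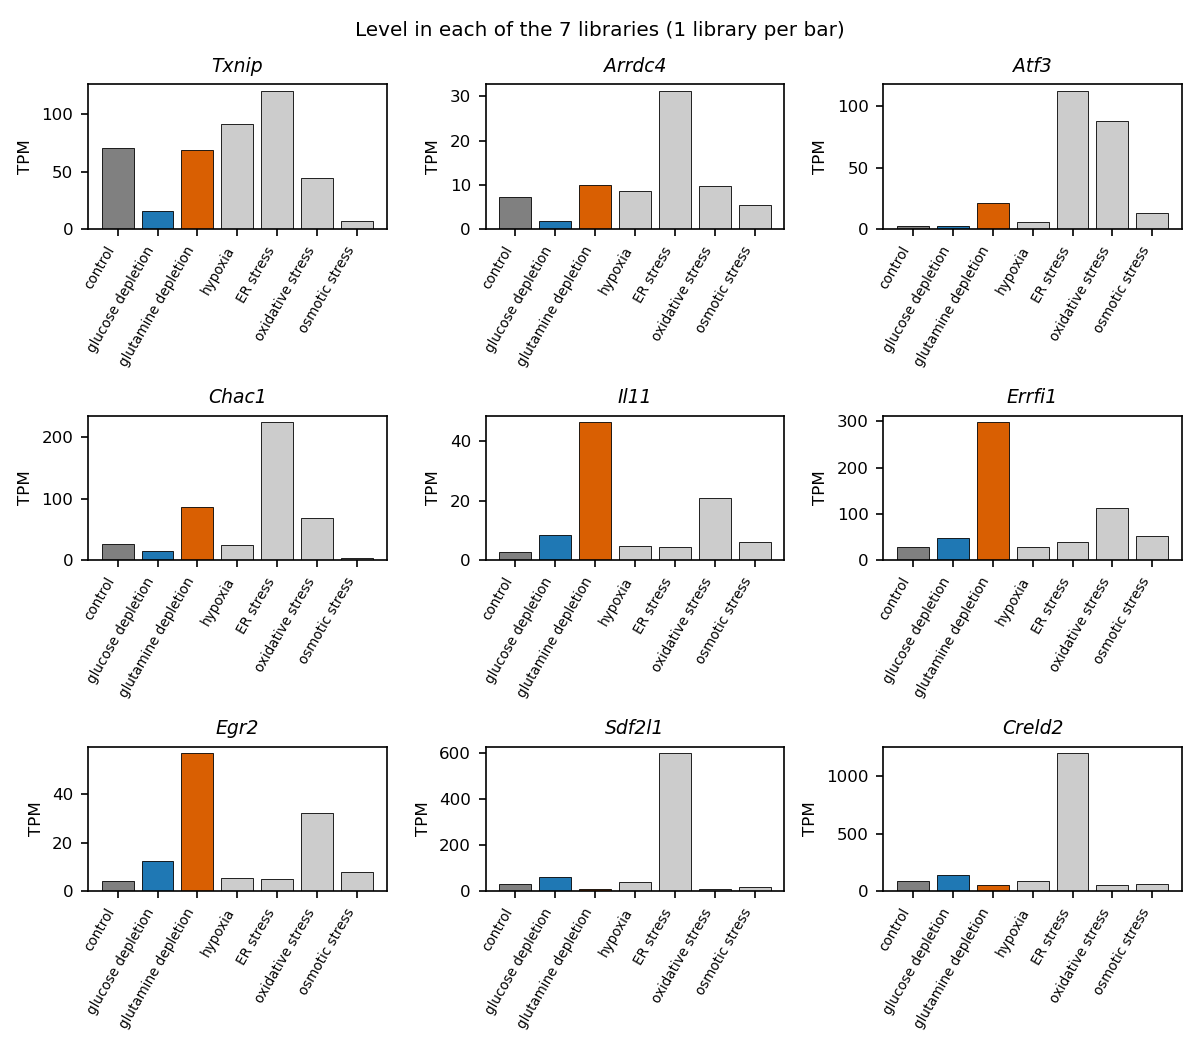
TPM of 9 genes in each of the 7 libraries, 1 bar per library, from 0, with glucose depletion in blue, glutamine depletion in orange and control in dark grey. Txnip and Arrdc4 are low in glucose depletion and near the control in glutamine depletion, Il11, Errfi1 and Egr2 are highest in glutamine depletion, and Sdf2l1 and Creld2 are higher in glucose than in glutamine depletion and far higher in ER stress.

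Genes of the integrated stress response were higher in glutamine depletion, with 18 of 19 differences above 0, where 43.6% of all kept rows were, and a list median of 0.55. Of the 19 genes 4 were past 2-fold, against 1.62% of all kept rows. Chac1, which degrades glutathione (chromosome 2, 119351229 to 119354381, plus strand), was at 86.8 TPM in glutamine depletion, 14.8 TPM in glucose depletion and 26.2 TPM in the control, a difference of 2.48. It reached 224 TPM in ER stress and 69.7 TPM in oxidative stress, was at 25.3 TPM in hypoxia and was at 4.28 TPM in osmotic stress. The control thus lay between the 2 nutrient libraries.

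Atf3, a transcription factor that ATF4 and other stress pathways induce (chromosome 1, 191170296 to 191218039, minus strand), was at 3.14 TPM in glucose depletion and 3.02 TPM in the control, against 21.3 TPM in glutamine depletion (2.43). It was higher still in oxidative stress, 88.3 TPM, and in ER stress, 112 TPM, with 13.2 TPM in osmotic stress and 5.95 TPM in hypoxia. The glucose library and the control held the 2 lowest levels of Atf3 in the series. The chromatin-associated stress protein Nupr1 was at 549 TPM in glutamine depletion and 264 TPM in glucose depletion (1.05), and the pseudokinase Trib3, which restrains ATF4, at 57.0 and 27.7 TPM (1.02).

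Atf4 mRNA itself was at 478 TPM in glutamine depletion and 260 TPM in glucose depletion (0.88), against 276 TPM in the control. Ddit3, which encodes the proapoptotic factor CHOP, was at 141 and 95.9 TPM (0.55), far from the 1870 TPM of ER stress. The single member below 0 was Eif2ak3, the ER kinase PERK, at 14.04 TPM in glutamine depletion and 22.4 TPM in glucose depletion (-0.64). Several members of this list are induced by ER stress as well as by amino acid lack, and which of these acted here was not tested.

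Targets of ATF4 in amino acid supply differed less. In the list of amino acid synthesis and the folate cycle none of 13 genes was past 2-fold (median 0.25). Asparagine synthetase, Asns, which uses glutamine as its nitrogen donor, was at 168 TPM in glutamine depletion, 125 TPM in glucose depletion and 141 TPM in the control (0.42). Psph, the last enzyme of serine synthesis, was at 45.3 TPM, 23.3 TPM and 41.4 TPM (0.93), so that here the glucose library lay below the control. Amino acid transporters had a median of 0.26 with 0 of 15 past 2-fold. The cationic amino acid transporter Slc7a1 was at 54.2 TPM in glutamine depletion, 27.0 TPM in glucose depletion and 24.8 TPM in the control (0.98). Slc7a5, the leucine exchanger that brings in large neutral amino acids, was at 123 and 74.1 TPM (0.73), and its partner chain Slc3a2 at 301 and 189 TPM (0.66). The 20 aminoacyl-tRNA synthetases had a median of 0.08, and 0 of them were past 2-fold.

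Enzymes that use the 2 nutrients showed few large differences. Against 1.62% of all kept rows, 1 of 15 genes of glutamine and glutamate metabolism was more than 2-fold higher in glutamine depletion. This was Gfpt2, which makes glucosamine phosphate from glutamine and fructose phosphate, at 29.2 TPM in glutamine depletion, 13.0 TPM in glucose depletion and 8.51 TPM in the control (1.11). Glutamine synthetase, Glul, was at 18.5 TPM in glutamine depletion and 27.3 TPM in glucose depletion (-0.54).

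Among 21 genes of glycolysis and glucose transport the median was -0.29. In each direction 1 was past 2-fold, against 1.62% of all kept rows higher in glutamine depletion and 1.16% higher in glucose depletion. Hk2, the inducible hexokinase, was at 36.9 TPM in glutamine depletion and 13.3 TPM in glucose depletion (1.41), with 16.2 TPM in the control. Slc16a3, the lactate exporter MCT4, was at 27.4 TPM in glucose depletion and 10.6 TPM in glutamine depletion (-1.29), with 13.9 TPM in the control. Both were highest in hypoxia, at 56.1 and 391 TPM. The glucose transporter Slc2a1 was at 107 TPM in glutamine depletion and 70.5 TPM in glucose depletion (0.59), whereas Pfkl, a phosphofructokinase subunit, was at 26.5 and 47.1 TPM (-0.81) and Pgk1, phosphoglycerate kinase, at 254 and 372 TPM (-0.55). Gapdh, the most abundant member, was at 2297 and 2563 TPM.

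ER chaperones were the clearest group on the side of glucose depletion. All 17 genes of the list were below 0, where 56.3% of all kept rows were, with a median of -0.69. Past 2-fold were 3 of them, against 1.16% of all kept rows. Sdf2l1, a cochaperone of BiP (chromosome 16, 17130138 to 17132383, minus strand), was at 60.8 TPM in glucose depletion and 12.1 TPM in glutamine depletion, with 31.1 TPM in the control. It was at 598 TPM in ER stress, 40.4 TPM in hypoxia, 18.2 TPM in osmotic stress and 12.4 TPM in oxidative stress. The glucose library was second only to ER stress and the glutamine library was the lowest of the 7, a difference of -2.24.

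Creld2, an ER-resident protein induced by unfolded proteins (chromosome 15, 88819646 to 88826683, plus strand), showed the same order. It was at 146 TPM in glucose depletion, 90.4 TPM in the control and 55.3 TPM in glutamine depletion (-1.38), and between 55.4 and 1193 TPM in the other 4 libraries. Manf, a secreted ER stress protein, was at 668, 441 and 321 TPM (-1.05). Hspa5, the chaperone BiP, whose promoter window also holds the ER stress response element, was at 1689 TPM in glucose depletion and 943 TPM in glutamine depletion (-0.84), while the control had 1165 TPM and ER stress 12611 TPM. Hsp90b1, the chaperone GRP94, was at 1684 and 986 TPM (-0.77). For these 5 genes the control lay between the 2 nutrient libraries. Derl3, a channel protein for the degradation of misfolded ER proteins that stood outside the list, was at 3.64 TPM in glucose depletion and 0.372 TPM in glutamine depletion (-1.76), while the control had 1.65 TPM and ER stress 331 TPM.

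Genes of N-glycosylation and the hexosamine pathway leaned the same way with smaller differences. Of 18 kept genes 16 were below 0, where 56.3% of all kept rows were, the median was -0.27, and 0 were past 2-fold. The exception with the largest positive value was Uap1, which makes the activated amino sugar, at 0.62. The cytosolic heat shock list, in contrast, had a median of -0.04 over 13 genes with 0 past 2-fold.

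**Figure D3:**
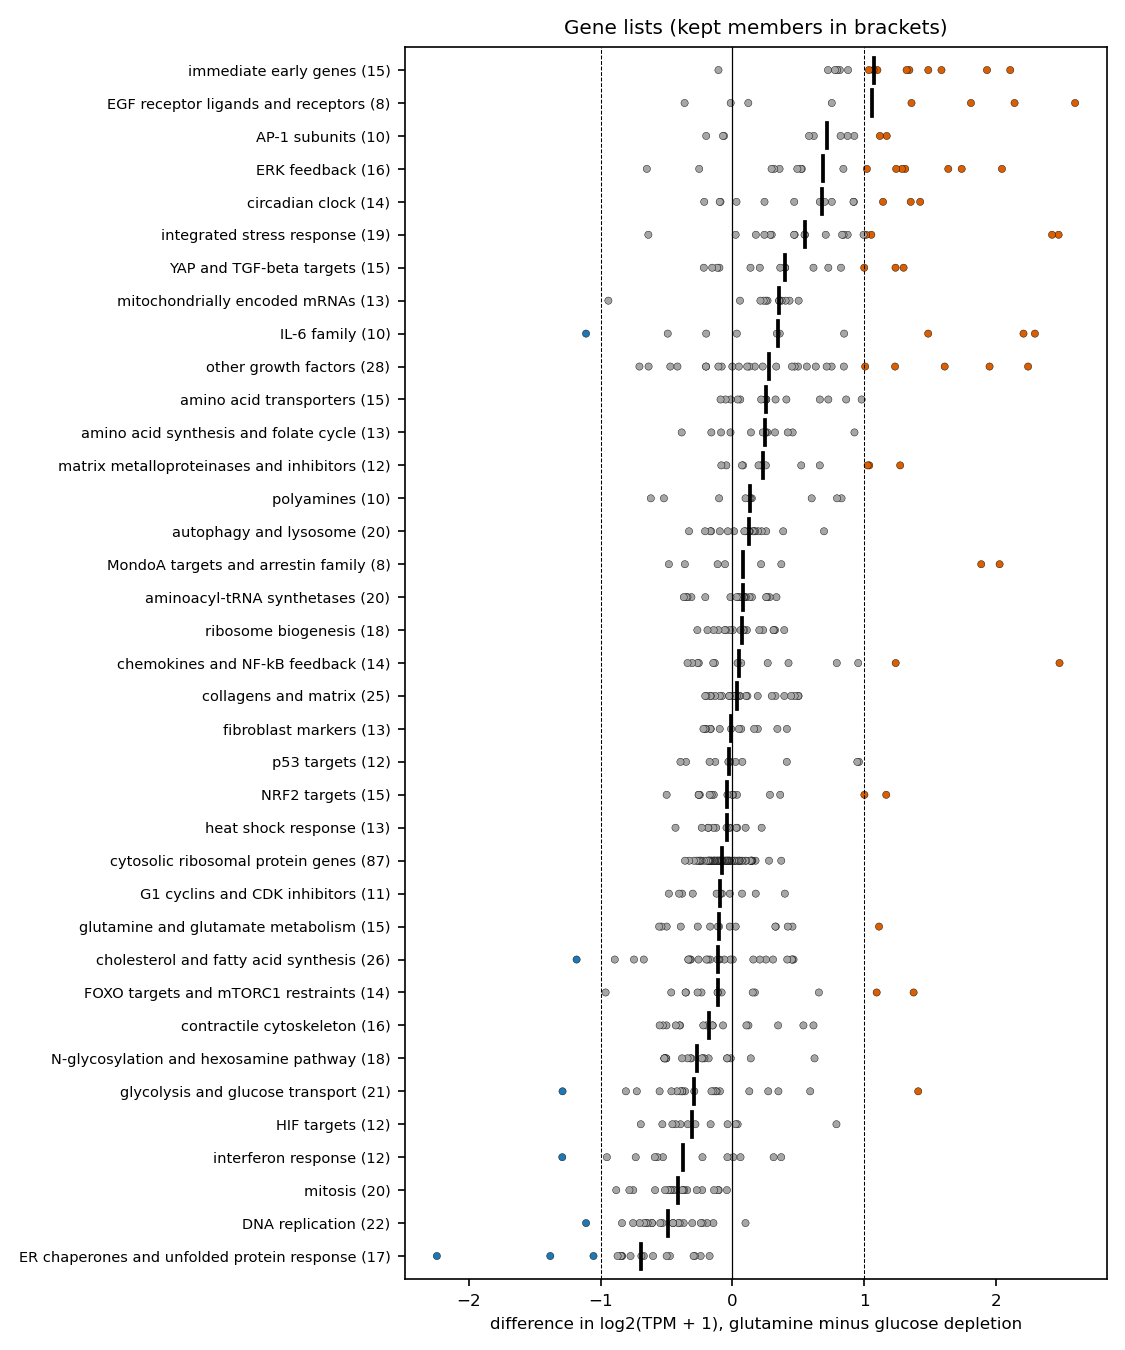
Difference in log2(TPM + 1), glutamine minus glucose depletion, of each kept member of 37 gene lists (horizontal axis), 1 point per gene, with the list median as a vertical bar and the number of kept members in brackets; orange and blue points are past 2-fold (dashed lines). Immediate early genes (median 1.07) and EGF receptor ligands and receptors (1.06) stand at the top. ER chaperones (-0.69), DNA replication (-0.49) and mitosis (-0.41) stand at the bottom, and collagens, fibroblast markers and ribosomal protein genes near 0.

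Immediate early genes, the transcription factors and RNA regulators that growth factor signals induce within minutes, had a list median of 1.07. Of 15 kept genes 14 were above 0, where 43.6% of all kept rows were, and 9 were past 2-fold, where 1.62% were. Egr2, a zinc finger transcription factor (chromosome 10, 67535475 to 67542188, plus strand), was at 56.9 TPM in glutamine depletion, 12.4 TPM in glucose depletion and 4.50 TPM in the control. Its other values were 32.2 TPM in oxidative stress and 5.01 to 8.06 TPM in ER stress, hypoxia and osmotic stress. The glutamine library was the highest of the 7, and the difference was 2.11. Nr4a1, an orphan nuclear receptor, was at 79.9 TPM in glutamine depletion and 20.2 TPM in glucose depletion (1.93), close to the 22.3 TPM of the control. The others past 2-fold were the Krüppel-like factors Klf4 (1.59) and Klf6 (1.34), Ier2 (1.49), the transcription factor Egr1 (1.32), the mRNA decay factor Zfp36 (1.10), Myc (1.07) and Ier5 (1.04). Klf4 was at 98.2 TPM in glutamine depletion, 58.6 TPM in the control and 32.0 TPM in glucose depletion.

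AP-1, the dimer of Fos and Jun proteins, was represented by 10 kept genes with a median of 0.72. Past 2-fold and higher in glutamine depletion were 2 of them, against 1.62% of all kept rows. Junb was at 171 TPM in glutamine depletion and 75.4 TPM in glucose depletion (1.17), and Fosb at 4.63 and 1.59 TPM (1.12). Junb was higher still in osmotic stress (184 TPM), and Fosb in oxidative stress (6.77 TPM) and osmotic stress (6.37 TPM). Fos was at 11.9 and 5.82 TPM (0.93) and Jun at 109 and 72.7 TPM (0.58).

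Genes of the ERK feedback list were also higher in glutamine depletion, with 7 of 16 past 2-fold, 14 above 0 and a median of 0.69. Of all kept rows, 1.62% were past 2-fold in this direction and 43.6% were above 0. Spred2, which blocks activation of Raf, was at 74.9 TPM in glutamine depletion, 17.4 TPM in glucose depletion and 18.5 TPM in the control (2.05), and between 14.1 and 39.97 TPM in the other 4 libraries. Phlda1 was at 71.9 and 20.8 TPM (1.74). The dual specificity phosphatases Dusp10 (1.64), Dusp5 (1.31) and Dusp4 (1.29), which remove phosphate from MAP kinases, and the Sprouty genes Spry4 (1.24) and Spry2 (1.02) followed. Spry1 went the other way, at 12.3 TPM in glutamine depletion and 19.8 TPM in glucose depletion (-0.65). The glutamine library was the highest of all for Spred2 and Dusp5, but not for Phlda1, Dusp10, Dusp4, Spry4 and Spry2.

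The EGF receptor list, with a median of 1.06 over 8 kept genes, held the largest difference of any gene in the lists. Errfi1, a feedback inhibitor of the EGF receptor (chromosome 4, 150853919 to 150868892, plus strand), was at 298 TPM in glutamine depletion, 48.2 TPM in glucose depletion and 28.1 TPM in the control, a difference of 2.60. It stood at 113 TPM in oxidative stress and between 28.4 and 53.4 TPM in the other 3 libraries. Of the ligands, Ereg was at 108 and 23.8 TPM (2.14), Hbegf at 346 and 97.8 TPM (1.81) and Areg at 3.15 and 0.617 TPM (1.36). The receptor Egfr was at 42.2 and 24.6 TPM (0.75), and the list median rests on few genes.

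Cytokines of the IL-6 family separated the 2 libraries in their ligands more than in their receptors. Of 10 kept genes 3 were past 2-fold above and 1 below, against 1.62% and 1.16% of all kept rows, with a median of 0.35. Il11, a cytokine that acts on fibroblasts themselves (chromosome 7, 4772373 to 4782859, minus strand), was at 46.2 TPM in glutamine depletion, 8.61 TPM in glucose depletion and 2.86 TPM in the control. It was at 21.01 TPM in oxidative stress, 6.26 TPM in osmotic stress, 4.74 TPM in hypoxia and 4.35 TPM in ER stress. The glutamine library was the highest of the 7 and the glucose library the third, and the direct difference was 2.30. Lif (chromosome 11, 4257557 to 4272514, plus strand) was at 89.1 TPM in glutamine depletion, 18.5 TPM in glucose depletion and 9.74 TPM in the control (2.21). Clcf1 was at 45.7 and 15.7 TPM (1.49) on 2 rows with identical values, counted once in the list.

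Ctf1, which encodes cardiotrophin, was at 3.52 TPM in glutamine depletion and 8.75 TPM in glucose depletion (-1.11), the reverse of its relatives. Among the receptors the shared chain Il6st stood at -0.49 and Lifr at 0.03. The genes whose levels followed Il11 most closely over the 7 libraries were Egr2, Errfi1, Hbegf, Pmepa1 and Cbl, with a Pearson r of 0.992, 0.977, 0.974, 0.970 and 0.967. The glutamine library was the highest of the 7 for each of them. Genes chosen for likeness to Il11, itself highest there, tend to share this, so it only describes the choice.

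Other growth factors were past 2-fold in 5 of 28 cases, all higher in glutamine depletion, against 1.62% of all kept rows. Their median was 0.28. Among them Pdgfb, a mitogen of fibroblasts (chromosome 15, 79995874 to 80014977, minus strand), was at 15.5 TPM in glutamine depletion and 2.49 TPM in glucose depletion (2.24). The control and the other 4 libraries lay between 0.769 and 3.55 TPM. Without its glutamine value the mean of Pdgfb would lie below the filter of 2 TPM, so it was kept through the library in which it is high. Vegfa, the angiogenic factor, was at 402 and 103 TPM (1.95), and Inhba, which forms activin A, at 896 and 293 TPM (1.61). Fgf2 was at 158 and 66.7 TPM (1.23). Csf1, the macrophage growth factor, was at 638 and 411 TPM (0.63), within 2-fold.

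Of 15 genes known as targets of YAP and TGF-beta 3 were past 2-fold, all higher in glutamine depletion, against 1.62% of all kept rows. Their median was 0.40. Ctgf, a secreted matrix regulator, was at 3307 TPM in glutamine depletion, 1343 TPM in glucose depletion and 1177 TPM in the control (1.30), the tissue factor gene F3 at 426 and 180 TPM (1.24), and Nppb at 16.6 and 7.82 TPM. Of 12 kept genes of matrix proteases and their inhibitors, Plau (1.27), its receptor Plaur (1.04) and Timp3 (1.03) were past 2-fold. This compares with 1.62% of all kept rows, and the list median was 0.24. Collagens and other matrix genes had a median of 0.03 and 0 of 25 past 2-fold.

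The prostaglandin synthase Ptgs2 (chromosome 1, 150100031 to 150108227, plus strand), in the list of chemokines and NF-kB feedback genes, was at 667 TPM in glutamine depletion, 118 TPM in glucose depletion and 83.8 TPM in the control (2.48). It was also high in oxidative and osmotic stress, at 489 and 420 TPM. Tnfaip3, which ends NF-kB signalling, was at 10.5 and 3.89 TPM (1.24), but the median of the 14 kept genes of this list was 0.05. Of these 14 genes 2 were past 2-fold, against 1.62% of all kept rows.

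Protein-coding genes among the 20 largest positive differences that stood outside the lists were Ch25h, Arc and a row of Sumo3. Ch25h, which makes 25-hydroxycholesterol, was at 30.1 TPM in glutamine depletion, 4.65 TPM in glucose depletion and 4.66 TPM in the control (2.46). Arc, an immediate early gene of neurons, was at 86.6 TPM in glutamine depletion, 15.8 TPM in glucose depletion and 11.8 TPM in the control (2.38). Sumo3, a small ubiquitin-like modifier, stood on more than 1 row, and the row concerned was listed at 0 in glucose depletion and at 7.56 TPM in glutamine depletion, while the main row was at 205.7 and 177.5 TPM (-0.21), so that the division of reads between the rows is uncertain. Of the 20 largest differences in this direction 13 were rows at 0 TPM in glucose depletion, and 8 of the 20 were protein-coding.

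Genes of DNA replication and mitosis were lower in glutamine depletion by amounts that mostly stayed within 2-fold. Of 22 replication genes 21 were below 0 and 1 was past 2-fold, with a median of -0.49. Over all kept rows 56.3% were below 0, 1.16% were past 2-fold on this side and the median was -0.05. Cdc6, which loads the replicative helicase, was at 5.16 TPM in glutamine depletion, 12.3 TPM in glucose depletion and 10.4 TPM in the control (-1.11). Mcm2, a subunit of that helicase, was at 28.7, 52.0 and 50.5 TPM (-0.84). The exception was Rrm2, a subunit of ribonucleotide reductase, at 205 and 191 TPM (0.10). All 20 mitosis genes were below 0 and 0 were past 2-fold, with a median of -0.41. The lowest was the kinesin Kif20a, at 29.4 TPM in glutamine depletion, 55.0 TPM in glucose depletion and 57.5 TPM in the control (-0.88). Outside the lists, and chosen after their values were seen, Orc1, a subunit of the origin recognition complex (-1.33) and the nuclease Dna2 (-1.38) were past 2-fold in the same direction. For Cdc6, Mcm2 and Kif20a the glucose library lay near the control.

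Other genes higher in glucose depletion belonged to several pathways. Hmgcs1, an early enzyme of cholesterol synthesis, was at 67.6 TPM in glucose depletion and 29.2 TPM in glutamine depletion, both below the 98.5 TPM of the control (-1.18). It was the 1 gene past 2-fold among 26 of lipid synthesis, against 1.16% of all kept rows. Ifit3, an interferon response gene, was at 6.92 and 2.24 TPM (-1.29), with a list median of -0.38 over 12 genes. Protein-coding genes among the 20 largest negative differences included Ahrr, a repressor of the aryl hydrocarbon receptor, at 20.2 TPM in glucose depletion, 4.42 TPM in glutamine depletion and 26.2 TPM in the control (-1.97). Palmd (-1.82), the scavenger receptor gene Stab1 (-1.76), S100a7a (-1.69) and Narf (-1.65) were also among them. The histone gene Hist1h4m was listed at 0 in glutamine depletion and in the control and at 2.95 TPM in glucose depletion.

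Of 15 NRF2 targets, which protect against oxidants, 2 were past 2-fold, against 1.62% of all kept rows, with a list median of -0.04. Txnrd1 was at 468 TPM in glutamine depletion and 208 TPM in glucose depletion (1.17) and Srxn1 at 119 and 59.1 TPM (1.00). Both were higher still in oxidative stress, at 634 and 291 TPM. Of 14 clock genes the repressors Bhlhe41 (1.43), Bhlhe40 (1.35) and Nr1d1 (1.14) were past 2-fold, 11 were above 0 and the median was 0.68. Of all kept rows, 1.62% were past 2-fold in this direction and 43.6% were above 0. Bhlhe41 was at 12.9 TPM in glutamine depletion, 7.99 TPM in the control and 4.16 TPM in glucose depletion. Tsc22d3 (1.38) and Foxo1 (1.10), in the list of FOXO targets and mTORC1 restraints, were higher in glutamine depletion with a list median of -0.11. They were the 2 past 2-fold of 14 kept genes, against 1.62% of all kept rows. Cytosolic ribosomal protein genes had a median of -0.08 with 0 of 87 past 2-fold.

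In total 53 distinct genes of the 40 lists were more than 2-fold higher in glutamine depletion and 8 more than 2-fold higher in glucose depletion. Over all 11627 kept rows the counts were 188 (1.62%) and 135 (1.16%). The lists were chosen with earlier results of these data known, so their split does not stand for all rows. List medians were above 0.5 for 6 lists, below -0.5 for 1 and within 0.25 of 0 for 20. In 20 lists no member was past 2-fold.

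The 323 rows past 2-fold were also read in the libraries that did not enter the comparison. All changes here were taken against the same control library and are given side by side. For the 188 rows higher in glutamine depletion the median log2 change against the control was 0.86 in oxidative stress, 0.15 in ER stress, 0.06 in osmotic stress and -0.03 in hypoxia. Over all kept rows these medians were -0.17, 0.01, -0.13 and -0.05. In oxidative stress 76 of the 188 were more than 2-fold above the control and 8 more than 2-fold below, against 1.93% and 3.60% of all kept rows. The counts above and below were 44 and 32 in ER stress, against 7.28% and 9.97% of all kept rows. They were 31 and 18 in osmotic stress, against 1.61% and 7.43%, and 16 and 16 in hypoxia, against 2.06% and 1.07%. For the 135 rows higher in glucose depletion the medians were -0.65 in oxidative stress, -0.39 in osmotic stress, -0.24 in ER stress and 0.04 in hypoxia. The glutamine library was the highest of all 7 for 97 of the 188 rows and the lowest for 53 of the 135, and the glucose library was the lowest for 41 of the 188 and the highest for 48 of the 135. Rows chosen for a high or low value in a library tend to rank it at an extreme.

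**Figure D4:**
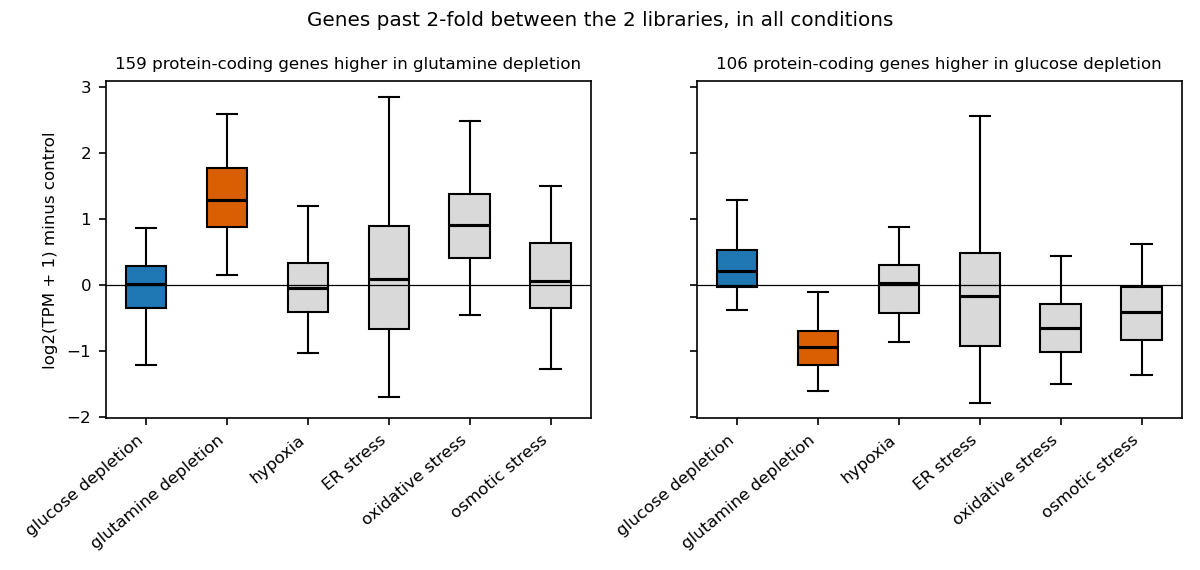
Change against the control in log2(TPM + 1), in each of the 6 other libraries, of the 159 protein-coding genes higher in glutamine depletion (left) and the 106 higher in glucose depletion (right); boxes give quartiles and medians over genes, whiskers the 5th to 95th percentile. On the left the medians of glutamine depletion (1.29) and oxidative stress (0.91) lie above 0 and that of glucose depletion (0.02) lies near it, and on the right glutamine depletion (-0.94) and oxidative stress (-0.66) lie below 0.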

How the data were processed

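RNA of MEFs was sequenced as stranded mRNA libraries, 1 per condition. The authors estimated transcript abundance with Kallisto (version 0.43.1 per the submitters' processing notes) on GRCm38 cDNA of Ensembl release 90 and deposited TPM summed per gene, with no read counts. The depth per library is therefore unknown. The deposited TPM were taken as log2(TPM + 1), and the glucose-depletion value was subtracted from the glutamine-depletion value over rows with a mean of at least 2 TPM. Of 12909 such rows, 1282 were left out by symbol, among them 130 protein-coding rows and 12 genes whose names start with Gm followed by a letter. Of the kept symbols, 80 stood on more than 1 row, 69 of them with identical values, and lists counted a symbol once. No per-sample column was left unused.

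Gene types and positions came from GENCODE M21 (GRCm38), with 124 kept rows unmatched and counted as not protein-coding. Promoter windows came from RefSeq (GRCm38.p6) and matched 8908 of 11547 kept symbols. They ran from 250 bases before the start site to a short way past it, and the motif shares count the whole window. The genes compared, the 40 lists and the motifs were chosen with earlier results of these data known, so no list is independent support. Named were Txnip, Atf3 and Il11, the 20 largest differences each way (of which non-coding rows are counted only), list members past 2-fold that could be reported, and in each list the largest differences or the most abundant gene. Other named genes, such as Asns, Atf4, Ddit3, Glul, Hspa5, Jun and Egfr, were chosen after their values were seen, as was the ER stress response element.

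Alternatives were pseudocounts of 0.1 and 5 TPM, other expression filters, centring, rescaling to the upper quartile, thresholds of 1.5-fold and 3-fold, removal of mitochondrially encoded genes, and inclusion of the left-out symbols. Protein-coding genes alone and at least 1 TPM in both libraries were added after seeing the data. The steps were tested on simulated data. A few items are not reported here. Figures were drawn with matplotlib 3.10.9, and values were computed in Python 3.11.15 with pandas 2.3.3 and numpy 2.4.6.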

Additional observations from a re-analysis of the deposited data

Results flagged for a closer look

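Named genes were singled out where both nutrient libraries lay more than 1.5-fold from the control on the log2(TPM + 1) scale and in opposite directions. Over all kept rows 17 did so, 9 of them protein-coding, and with 1 library per condition the difference was not tested. Chac1 was 1.69 above the control in glutamine depletion and -0.78 from it in glucose depletion, a direct difference of 2.48. Klf4 (0.74 and -0.85, direct difference 1.59) and Bhlhe41 (0.63 and -0.80, direct difference 1.43) had the same directions. Sdf2l1 was at -1.30 in glutamine depletion and 0.94 in glucose depletion, a direct difference of -2.24. Derl3 (-0.95 and 0.81, direct difference -1.76) and Creld2 (-0.70 and 0.68, direct difference -1.38) had the same directions as Sdf2l1.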

How the results depend on the processing

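The counts of rows past 2-fold, 188 higher in glutamine depletion and 135 higher in glucose depletion, moved with the fold threshold and with settings that weight low expression. They were 283 and 264 with a pseudocount of 0.1 TPM, 99 and 28 with 5 TPM, 114 and 41 with a mean of at least 10 TPM, and 403 and 306 with the left-out symbols kept in. Without an expression filter 235 were higher in glucose depletion. At 1.5-fold the counts were 701 and 834 and at 3-fold 59 and 19, so the side with more genes turned at 1.5-fold. The share of counted rows higher in glutamine depletion was 58.2% as reported, 77.95% with 5 TPM, 73.5% with a mean of at least 10 TPM, 45.7% at 1.5-fold and 75.6% at 3-fold. Centring gave 226 and 112, upper-quartile rescaling 181 and 144, and protein-coding genes alone, added after seeing the data, 159 and 106. No list median past the tolerance of 0.25 log2 units and no named gene past 2-fold changed sign under the alternatives run for it. Of 437 list medians under alternatives 8 moved by more than this tolerance, and the EGF receptor list ranged from 0.31 without an expression filter to 1.30 with a pseudocount of 0.1 TPM, against 1.06 as reported. Of 75 named genes past 2-fold, 75 stayed past it after centring, 73 after upper-quartile rescaling and 51 with a pseudocount of 5 TPM. No paired analysis was possible because each condition had 1 library, and leaving out a replicate was not possible for the same reason. Unknown depth limits most the genes near or below 1 TPM, such as Areg and Derl3, whose differences were 0.54 and -0.69 with 5 TPM.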

Other observations

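Values outside the lists were read after the counts were known. Gjb2, a connexin gene of gap junctions, was at 358 TPM in glutamine depletion, 136 TPM in glucose depletion and 88.2 TPM in the control (1.39). The glutamine library was the highest of the 7 and the glucose library lay above the control. Has2, which makes hyaluronan, was at 97.5, 29.1 and 15.4 TPM (1.71) and was also highest in glutamine depletion. Gadd45a, a growth arrest gene, was at 88.5, 26.5 and 30.3 TPM (1.70), and reached 286 TPM in ER stress. Among the 13 mitochondrially encoded mRNAs, 12 were above 0, where 43.6% of all kept rows were, and 0 were past 2-fold. Their median was 0.36, and mt-Nd3 alone was below 0, at 1349 TPM in glutamine depletion and 2590 TPM in glucose depletion (-0.94).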
